A study of Mus musculus with 2 samples.

Results

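The collagen genes were described across the cells of the adult mouse vomeronasal organ (VNO), to ask which class of cell holds the transcripts of which collagen chain. The members were all genes whose symbol consists of Col, a number, the letter a and a number (for example Col1a1), 44 of the 32285 gene identifiers counted. They were described in fibroblast-like, mural-like, endothelial-like, ensheathing-like, basal epithelial-like and neuronal-like cells. The study sequenced single cells to follow how the vomeronasal neurons of adult mice choose their fate. Whole VNOs of wild-type C57BL/6J male mice at postnatal day 60 (P60), 5 mice in all, were dissociated, frozen and thawed, and 2 droplet libraries of one group were made. All cells were therefore of one genotype, age and sex, with no treatment, and the comparisons were between cell classes within the same libraries. The labels do not say how the mice were divided over the libraries, so that p-values measure only the spread between these 2 libraries, which may be technical.

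Collagens are proteins of 3 chains wound into a triple helix, made and folded in the endoplasmic reticulum and assembled outside the cell. Fibrillar collagens (such as Col1a1, Col1a2 and Col3a1) form the fibers of connective tissue, and FACIT collagens (such as Col9a2, Col12a1 and Col14a1) sit on the surface of such fibers. Network collagens include the type IV chains, which build the basement membranes under epithelia and around vessels, nerves and muscle, and the type VIII chains. Beaded filament collagens (type VI and its relatives), the anchoring fibril collagen Col7a1, the transmembrane collagens (such as Col13a1 and Col17a1) and the multiplexins (Col15a1 and Col18a1) make up the rest. The VNO is a paired tubular organ of the nasal septum in which a sensory epithelium of neurons, supporting cells and basal cells lies over a lamina propria with vessels, glands and axon bundles wrapped by ensheathing glia.

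The sequences before a RefSeq start site of 7 collagen genes are given because these genes stand for the classes in which they were highest. They were taken from the RefSeq promoter table of GRCm38.p6, which held 35 of the 44 genes, and only the longest stretch without an annotated exon is shown, 5′ to 3′ on the strand of the gene. For Col1a2 the start site of the table lies within the gene as GENCODE gives it (its first base there is 4504814), so that the stretch is not upstream of the GENCODE gene. Capitals mark the motifs searched on both strands: the CCAAT box, the TATA box (TATAAA), a GC box (GGGCGG) and a core that Sox factors bind (ACAAAG). Matches outside the stretches shown are not seen here. These were CCAAT at -109 to -105 from the start site of Col1a2 and, on the other strand, at -31 to -27 of Col17a1. Col1a2 (chr6:4505370-4505492, plus strand) and Col3a1 (chr1:45311288-45311537, plus strand) were highest in fibroblast-like cells, and Col28a1 (chr6:8192618-8192867, minus strand) in ensheathing-like cells. Col17a1 (chr19:47692095-47692292, minus strand) was highest in basal epithelial-like cells, Col13a1 (chr10:61979109-61979358, minus strand) in endothelial-like cells, Col19a1 (chr1:24587473-24587687, minus strand) in mural-like cells and Col24a1 (chr3:145292222-145292471, plus strand) in immature neuronal-like cells.
Col1a2: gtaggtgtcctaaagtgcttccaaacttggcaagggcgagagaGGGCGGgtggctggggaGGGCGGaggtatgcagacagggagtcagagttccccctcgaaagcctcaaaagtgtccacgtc
Col3a1: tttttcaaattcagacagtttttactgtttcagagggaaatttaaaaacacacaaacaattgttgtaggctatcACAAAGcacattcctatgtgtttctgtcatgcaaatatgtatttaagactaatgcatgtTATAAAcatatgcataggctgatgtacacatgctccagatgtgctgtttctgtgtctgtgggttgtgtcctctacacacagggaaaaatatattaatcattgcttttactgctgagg
Col28a1: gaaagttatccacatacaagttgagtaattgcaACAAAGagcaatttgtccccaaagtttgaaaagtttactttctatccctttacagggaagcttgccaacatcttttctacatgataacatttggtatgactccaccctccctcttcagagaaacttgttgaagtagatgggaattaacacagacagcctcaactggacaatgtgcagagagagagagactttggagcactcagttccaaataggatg
Col17a1: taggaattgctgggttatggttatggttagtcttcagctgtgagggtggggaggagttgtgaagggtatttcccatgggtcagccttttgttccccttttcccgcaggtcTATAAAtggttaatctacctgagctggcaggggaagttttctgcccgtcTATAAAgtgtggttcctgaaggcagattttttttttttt
Col13a1: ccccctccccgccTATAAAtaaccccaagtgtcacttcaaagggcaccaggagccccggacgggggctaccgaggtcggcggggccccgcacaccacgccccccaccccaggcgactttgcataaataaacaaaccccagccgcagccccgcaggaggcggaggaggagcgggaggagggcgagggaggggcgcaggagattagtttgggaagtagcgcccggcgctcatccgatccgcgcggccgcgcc
Col19a1: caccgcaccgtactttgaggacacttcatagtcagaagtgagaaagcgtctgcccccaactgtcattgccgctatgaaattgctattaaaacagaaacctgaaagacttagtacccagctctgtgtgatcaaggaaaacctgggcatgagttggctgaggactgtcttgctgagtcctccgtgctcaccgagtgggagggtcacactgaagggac
Col24a1: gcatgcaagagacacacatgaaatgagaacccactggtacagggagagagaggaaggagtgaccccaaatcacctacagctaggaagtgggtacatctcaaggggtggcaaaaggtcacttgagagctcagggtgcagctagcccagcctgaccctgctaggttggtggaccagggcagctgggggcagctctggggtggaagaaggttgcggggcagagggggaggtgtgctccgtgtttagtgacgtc

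In the windows of the 35 genes (the 250 bases before the start), CCAAT was present for 13 genes, TATAAA for 5, GGGCGG for 21 and ACAAAG for 4. Of all 32851 windows of the same length in the table, 33.8% held CCAAT, 12.4% TATAAA, 32.7% GGGCGG and 16.5% ACAAAG. A match is a description of the letters and not a binding site. TATAAA stood in the windows of Col3a1, Col10a1, Col11a2, Col13a1 and Col17a1, which were not highest in one common class.

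The libraries held 108003220 and 95440362 molecules, each counted as a unique molecular identifier (UMI). After the filter of the study (at most 5% mitochondrial UMIs) 10592 cells remained, with a median of 6668 and 6650 UMIs per cell. The classes were named from markers other than collagens and are called "like" for that reason: 360 fibroblast-like, 638 endothelial-like, 70 ensheathing-like, 1058 basal epithelial-like, 704 mature and 580 immature neuronal-like cells. No mural cluster could be named at this limit, and 3497 cells were left in no class. A stromal cluster of 119 cells led by Rgs5 raised 7 of 12 mural, 6 of 9 fibroblast and 4 of 5 osteoblast markers, and was left unnamed and out of every class. At a mitochondrial limit of 10%, 181 cells formed 2 mural clusters, 1 with Rgs5 (47 cells) and 1 with little of it (134 cells), and comparisons with mural-like cells were made there. Each class held UMIs of all its own markers, apart from 1 of the 8 ensheathing markers that was at 0. In fibroblast-like cells the 12 mural markers summed to 11176 and 10628 UMIs per 1000000 UMIs (CPM), with Acta2 and Tagln the most abundant, while in mural-like cells the 9 fibroblast markers summed to 156 and 315. Ensheathing-like cells held 83.8 and 631 CPM of the fibroblast markers, most of it Dcn, and endothelial markers there were largely Cldn5. A total of 33 barcode sequences occurred in both libraries, 3 of them among the kept cells of both.

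Collagen UMIs were most abundant in fibroblast-like cells. They made up 16053 and 17216 CPM in the 2 libraries there, and 4016 and 3429 in ensheathing-like cells. Endothelial-like cells held 767 and 830 and basal epithelial-like cells 430 and 489. Immature neuronal-like cells held 155 and 174 CPM of collagen, and mature neuronal-like cells 104 and 40.3. The order of the classes was thus the same in both libraries and neighbouring classes did not overlap. Leukocytes, which are not known as makers of collagen, held 107 (neutrophil-like), 78.4 (T cell-like) and 19.3 (B cell-like) CPM of collagen, so that the total in mature neuronal-like cells lay within the range of these cells. Mural-like cells, at the 10% limit, held 1001 and 1683. Outside the classes described, chondrocyte-like cells held 9869 and 7803 at the 5% limit. Osteoblast-like cells held 20661 and 18177 at the 10% limit, against 17418 and 18005 in fibroblast-like cells at that limit.

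The kinds of collagen differed between classes as well. Fibrillar chains made up 65.8% of the collagen UMIs of fibroblast-like cells, network chains 12.9% and multiplexins 10.1%. In endothelial-like cells the network chains led with 44.7%, followed by the multiplexins with 32.2%. Ensheathing-like cells held 43.3% fibrillar and 31.9% FACIT chains. Basal epithelial-like cells held 58.7% transmembrane chains, most of them Col17a1, and 10.9% of the anchoring fibril chain Col7a1. Mural-like cells held 42.5% fibrillar and 22.8% network chains. No test was made of these shares, which rest on summed UMIs of 1 molecule each, counted at the 3′ end and so not divided by gene length.

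**Figure D1:**
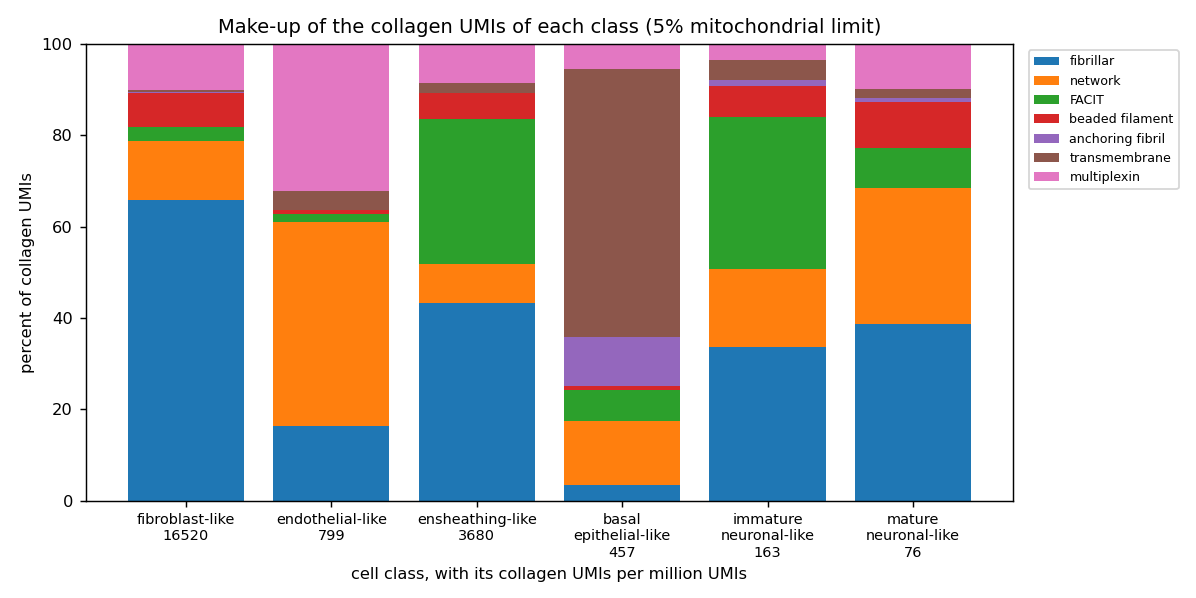
The stacked bars show the share of collagen UMIs, in percent, that each structural group of collagens took in 6 cell classes at the 5% mitochondrial limit, over both libraries, with the collagen CPM under each bar. Fibrillar chains took 65.8% in fibroblast-like cells, network chains 44.7% in endothelial-like cells and transmembrane chains 58.7% in basal epithelial-like cells.

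For each gene with at least 10 UMIs in these classes at the 5% limit, the class with the most CPM was recorded. It was the fibroblast-like class for 20 genes, the ensheathing-like class for 11, the basal epithelial-like class for 3 (Col7a1, Col17a1 and Col25a1), the immature neuronal-like class for 2 (Col24a1 and Col2a1) and the endothelial-like class for 1 (Col13a1). The class was the same in each library alone for 33 of these 37 genes. For the other 4 the leading classes were close: Col14a1 stood at 113 and 82.7 CPM in fibroblast-like cells and at 83.8 and 99.6 in ensheathing-like cells. Col23a1 was near equal in the same pair of classes, and Col24a1 in immature neuronal-like and fibroblast-like cells. Col2a1, the chain of cartilage fibrils, rested on 6 UMIs in its highest class. At the 10% limit, with mural-like cells included, 40 genes could be placed and Col19a1 and Col23a1 were highest in mural-like cells. The counts at that limit were 22 genes for fibroblast-like, 10 for ensheathing-like, 3 for basal epithelial-like, 2 for immature neuronal-like and 1 for endothelial-like cells.

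The 7 genes below 10 UMIs at the 5% limit were Col4a3, Col6a5, Col6a6, Col9a1, Col10a1, Col19a1 and Col22a1. Col19a1 had 0 UMIs in all 6 classes there and 39 UMIs in mural-like cells at the 10% limit. Col10a1, a chain of hypertrophic cartilage, had 8 UMIs, 7 of them in mature neuronal-like cells. Col6a5 had 1 UMI, Col22a1 and Col6a6 had 3 each, Col9a1 had 5 and Col4a3 had 8.

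**Figure D2:**
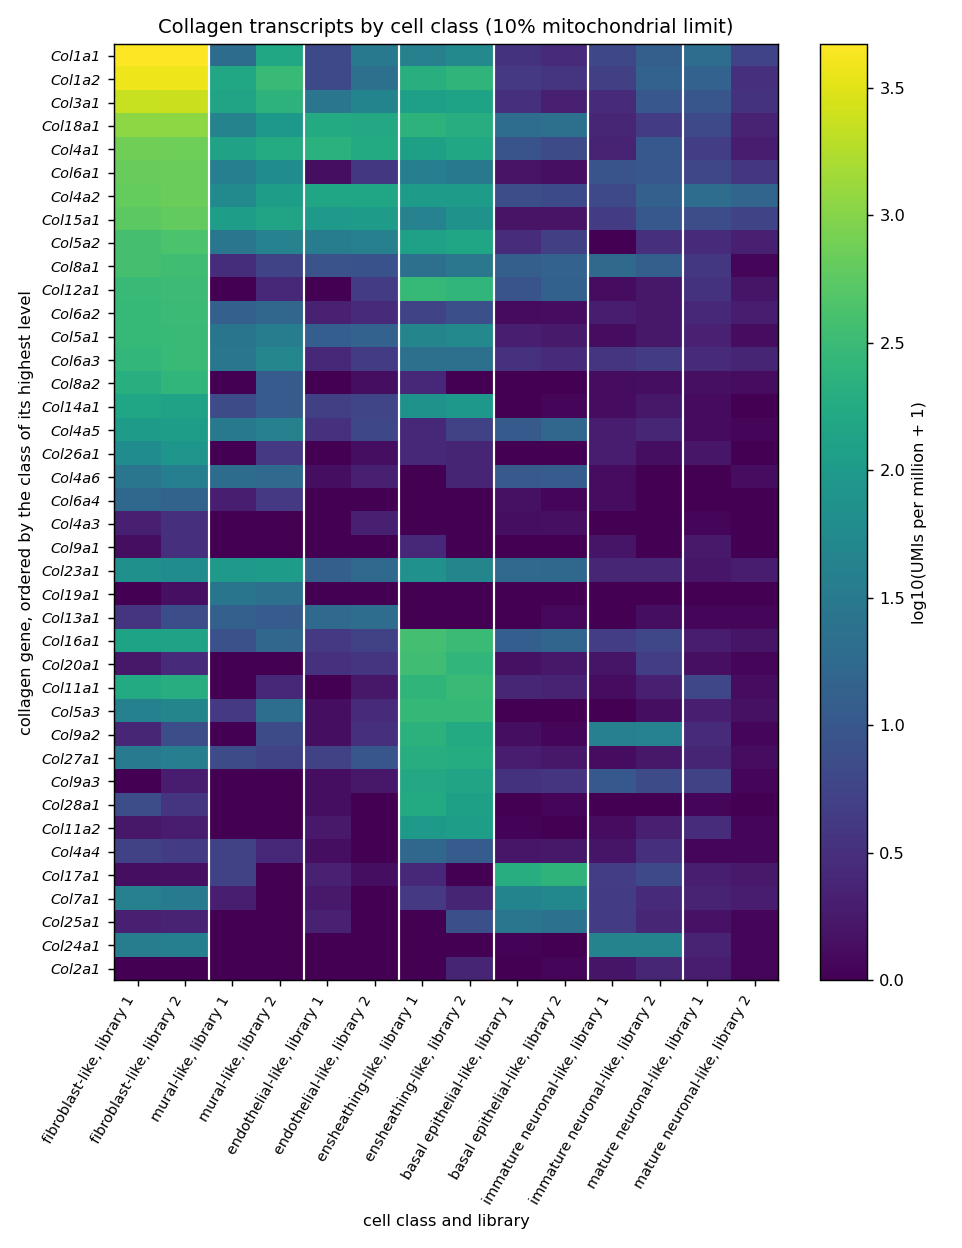
Each row is 1 of the 40 collagen genes with at least 10 UMIs at the 10% mitochondrial limit, each column a cell class in 1 library, and the color gives log10 of CPM plus 1. Rows are ordered by the class in which the gene was highest: 22 rows lead in fibroblast-like cells, 2 in mural-like, 1 in endothelial-like, 10 in ensheathing-like, 3 in basal epithelial-like and 2 in immature neuronal-like cells.

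Fibroblast-like cells were first compared with mural-like cells, the contractile cells around vessels. UMIs were summed per class and library and compared with edgeR's quasi-likelihood test, with p-values adjusted by Benjamini-Hochberg over all genes tested and called at 0.05. Of 40 collagen genes tested, 26 were higher in fibroblast-like cells, where 15.5% of all genes tested were called higher, and 1 was lower, where 10.7% were called lower. The median log2 fold change of the collagen genes was 3.77 and that of all genes 0.11. Both chains of type I collagen, the main fibrils of connective tissue, followed this direction. Col1a1 (chromosome 11, 94936224 to 94953042, plus strand, GRCm38) stood at 4565 and 4690 CPM in fibroblast-like cells and at 18.6 and 152 in mural-like cells, a log2 fold change of 6.02 (SE 0.57, adjusted p = 1.03e-07). Its partner Col1a2 (chromosome 6, 4504814 to 4541544, plus strand) stood at 3800 and 3840 against 160 and 297, a log2 fold change of 4.21 (SE 0.39, adjusted p = 9.38e-08). The mural-like libraries differed in Col1a1 but both lay far below the fibroblast-like ones, and their summed fibroblast markers differed in the same direction, at 156 and 315. The part of those markers in this difference was not tested.

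Several chains of the fibroblast-like cells were nearly absent from mural-like cells. Col12a1, a FACIT chain of dense connective tissue, had 1579 UMIs in fibroblast-like and 1 in mural-like cells (log2 fold change 9.02, SE 0.59, adjusted p = 6.48e-10). Col11a1, a minor fibrillar chain, had 907 against 1 UMI. Col24a1, a fibrillar chain, had 175 UMIs in fibroblast-like cells and 0 in mural-like cells, so that it was at least 18.9-fold higher (against 3 counts over the class). The type VIII chains Col8a1 and Col8a2, which build hexagonal networks, had log2 fold changes of 6.95 and 5.81. Smaller differences were found for the basement membrane chains Col4a1 (746 and 733 against 128 and 180 CPM, log2 fold change 2.39, SE 0.27) and Col4a2 (632 and 692 against 56.9 and 113, log2 fold change 3.12, SE 0.22). Col26a1, placed here with the beaded filament chains, stood at 60.3 and 82.5 CPM against 0 and 3.11 (log2 fold change 5.88, SE 0.64, adjusted p = 1.09e-06). The type VI chains Col6a1, Col6a2 and Col6a3, of the filaments that surround cells, were higher by 3.97, 4.57 and 3.07 on the log2 scale. Without library 1 the calls of Col28a1 (adjusted p = 0.32), Col5a3 (0.064) and Col6a4 (0.26) were lost.

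Col19a1 (chromosome 1, 24261890 to 24587472, minus strand), a FACIT chain, was the 1 gene lower in fibroblast-like cells. It stood at 0 and 0.437 CPM there and at 25.9 and 21.8 in mural-like cells (log2 fold change -6.57, SE 0.93, adjusted p = 8.16e-05), and the libraries did not overlap. In DESeq2 its adjusted p was 0.11. Most of its UMIs, 35 of 39, came from the mural cluster with little Rgs5. Col23a1, a transmembrane chain, stood at 93.1 and 103 CPM in mural-like cells against 69.7 and 59.4 in fibroblast-like cells, and did not pass the test (adjusted p = 0.07).

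**Figure D3:**
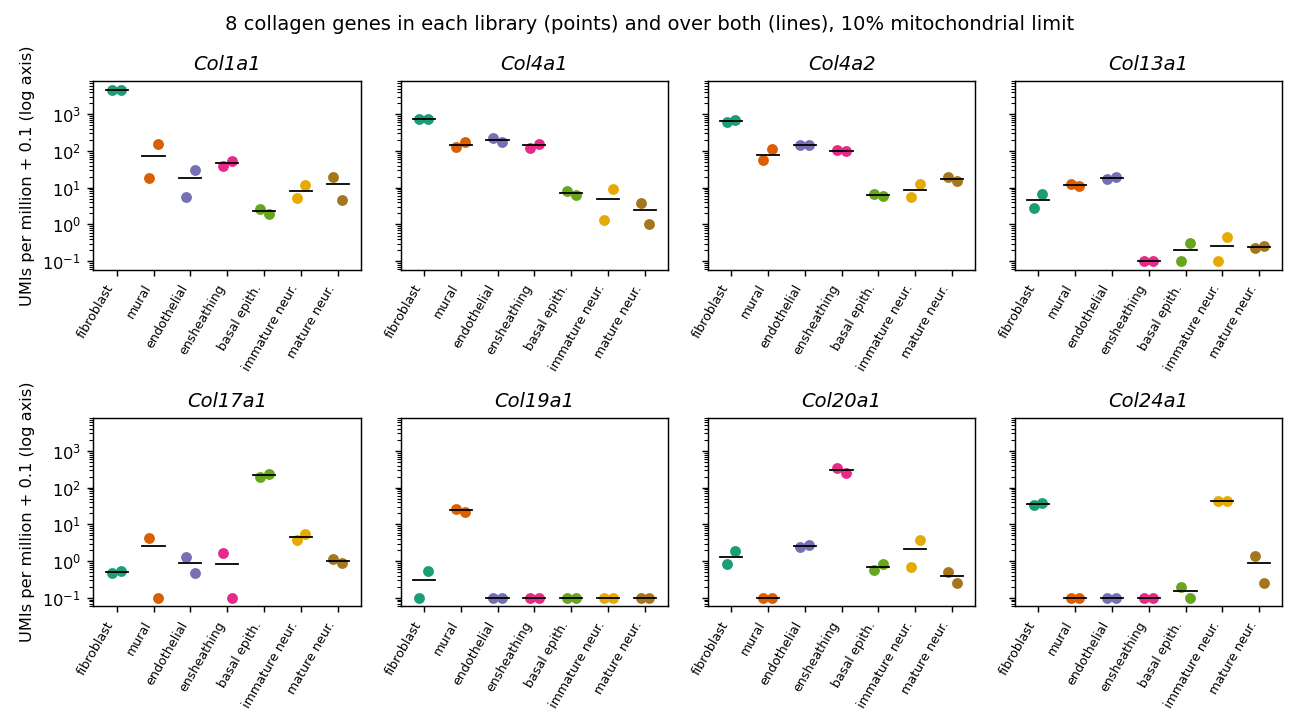
Points give CPM plus 0.1, on a log axis, of 8 collagen genes in each library and 7 cell classes at the 10% mitochondrial limit, and lines give the value over both libraries. Col1a1 was highest in fibroblast-like cells (4565 and 4690), Col17a1 in basal epithelial-like cells, Col19a1 in mural-like cells (25.9 and 21.8) and Col20a1 in ensheathing-like cells.

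Fibroblast-like cells were not uniform in their collagens. They fell into 3 clusters, found without collagen genes and described here without a test. The clusters were not alike in markers raised at least 2-fold over the other stromal cells. The cluster of 163 cells raised 9 of 9 fibroblast and 2 of 12 mural markers. The cluster of 122 cells raised 4 of 9 and 4 of 12, and that of 75 cells 5 of 9 and 5 of 12. The cluster of 122 cells held 1082 CPM of Col4a1, 2038 of Col18a1, 670 of Col8a1, 514 of Col8a2 and 345 of Col11a1. The cluster of 163 cells held 408 of Col4a1, 402 of Col18a1, 73.8 of Col8a1 and 52.4 of Col11a1, but 955 of Col15a1, which stood at 74.4 in the first. Its Dcn, Dpt and Pi16 were the highest of the 3 clusters. The third cluster, of 75 cells, held the most Col12a1 (492) together with 579 of Col8a1 and 600 of Col15a1. The multiplexins Col15a1 and Col18a1, which are relatives in sequence and both lie at basement membranes, were thus highest in different fibroblast-like clusters, in both libraries.

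Endothelial-like cells line the vessels that mural cells surround. Of the 40 genes tested, 2 were higher in endothelial-like cells, where 17.8% of all genes were called higher, and 16 were lower, where 16.2% were called lower. The median log2 fold change was -0.67 for the collagen genes and 0.03 for all genes. The higher genes were basement membrane collagens. Col18a1, the multiplexin from which endostatin is cut, stood at 172 and 166 CPM in endothelial-like and at 42.4 and 90.1 in mural-like cells (log2 fold change 1.53, SE 0.29, adjusted p = 2.79e-04). Col4a2 (chromosome 8, 11312805 to 11449287, plus strand) stood at 148 and 150 against 56.9 and 113 (log2 fold change 0.98, SE 0.23, adjusted p = 0.00226). Without library 1, in which the mural-like values of both genes were lower, the fold changes were 1.00 for Col18a1 (adjusted p = 0.078) and 0.52 for Col4a2 (adjusted p = 0.24).

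The 16 chains lower in endothelial-like cells were 5 fibrillar chains (Col1a1, Col1a2, Col3a1, Col5a1 and Col5a3), 4 of type VI (Col6a1, Col6a2, Col6a3 and Col6a4), 4 network chains (Col4a4, Col4a5, Col4a6 and Col8a2), the FACIT chains Col16a1 and Col19a1 and the transmembrane chain Col23a1. Col1a2 stood at 5.47 and 21.6 CPM in endothelial-like cells against 160 and 297 in mural-like cells (log2 fold change -3.92, SE 0.50, adjusted p = 3.40e-06). Col6a1 stood at 0.391 and 2.98 against 37.2 and 59.0 (log2 fold change -4.63, SE 0.44). The libraries of both genes kept well apart. The type IV chains divided between the classes: Col4a5 and Col4a6, a pair used in the basement membrane of smooth muscle, were lower in endothelial-like cells by 3.03 and 4.40 on the log2 scale, and Col4a1 did not pass the test (221 and 177 against 128 and 180, adjusted p = 0.18). Col19a1 had 0 UMIs in endothelial-like cells and was at least 42.3-fold lower. Col23a1 (-2.64), Col3a1 (-2.24), Col6a2 (-3.04) and Col6a3 (-3.76) were also lower.

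Calls that were lost without library 2 were those of Col5a1 (adjusted p = 0.053), Col8a2 (1.00), Col16a1 (0.29), Col5a3 (0.15) and Col1a1 (0.33), and those of Col4a4 (0.22 and 0.092) and Col6a4 (0.11 and 0.32) were lost without either library. Col1a1 is a case in point, at 5.47 and 29.8 CPM in endothelial-like cells and 18.6 and 152 in mural-like cells. Only 1.25% of endothelial-like cells at the 5% limit held any of its 90 UMIs.

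Col13a1 (chromosome 10, 61838236 to 61979108, minus strand), a transmembrane chain, was the only collagen highest in endothelial-like cells. At the 5% limit it stood at 18.8 and 17.8 CPM there and at 2.86 and 6.82 in fibroblast-like cells. A UMI was found in 9.25% of endothelial-like cells (exact 95% interval 7.11% to 11.8%, counting error only). In the neutrophil-like, T cell-like and B cell-like classes the share was at most 0.284%. With each cell thinned to 2000 UMIs the endothelial-like share was 2.99%. Within the class it was concentrated in a cluster of 130 cells at 78.7 CPM, where Col4a1 also stood at 412. Against mural-like cells it did not pass the test (17.2 and 19.4 against 12.4 and 10.9 CPM, adjusted p = 0.30). All 19 of its mural UMIs lay in the cluster with Rgs5, at 58.1 CPM. That cluster, of 47 cells, also held 455 CPM of Col4a1 and 241 of Col18a1, where the mural cluster of 134 cells held 70.9 and 15.6. Col15a1 had the reverse order, with 27.5 and 147, as had Col23a1, with 48.9 and 109. These cluster values are a description and were not tested.

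Ensheathing-like cells, the glia around the vomeronasal axons, were compared with fibroblast-like cells as the class with the next highest collagen total of the 6 described at the 5% limit. In them 9 of 37 collagen genes were higher, where 6.7% of all genes tested were called higher, and 20 were lower, where 9.75% were called lower. The median log2 fold change was -2.67 for the collagen genes and -0.11 for all genes. Without TMM scaling the median of all genes shifted by 0.30 and the counts were 10 and 19. Among the higher genes were 4 FACIT chains. Col20a1 (chromosome 2, 180986535 to 181018363, plus strand) stood at 335 and 243 CPM in ensheathing-like cells and at 0.571 and 0 in fibroblast-like cells (log2 fold change 9.24, SE 0.68, adjusted p = 1.94e-08). Col9a3 (chromosome 2, 180597790 to 180622189, plus strand) stood at 177 and 122 against 0 and 0, at least 142-fold higher. Its partner Col9a2 stood at 177 and 92.2 against 2.29 and 5.11 (log2 fold change 4.94, SE 0.57, adjusted p = 4.47e-06). The libraries of these genes did not overlap. These chains are also known from cartilage. Of 6 chondrocyte markers 3 were at 0 in ensheathing-like cells, and the list summed to 128 and 40.6 CPM. Col2a1 and Col9a1, which stood at 354 and 398 CPM in the 46 chondrocyte-like cells, had 0 UMIs in ensheathing-like cells.

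Col16a1, a FACIT chain that was also abundant in fibroblast-like cells, stood at 325 and 273 CPM against 118 and 121 (log2 fold change 1.02, SE 0.21, adjusted p = 0.00221). It did not pass without library 1 (adjusted p = 0.15) or without library 2 (0.069). Chains of other groups were higher too. Col28a1 (chromosome 6, 7997808 to 8192617, minus strand), a chain known from peripheral nerve, stood at 123 and 114 against 6.86 and 5.11 (log2 fold change 3.97, SE 0.51, adjusted p = 3.09e-05). The 5 markers of Schwann cells, the other glia of nerve, were all detected in this class and summed to 1522 and 1257 CPM. Their part in these values was not tested. Col5a3, a fibrillar chain of type V, stood at 330 and 232 against 36.6 and 31.5 (log2 fold change 2.73, SE 0.32). The fibrillar chains Col11a2 and Col27a1 had log2 fold changes of 7.12 and 2.08, the latter not passing without library 2 (adjusted p = 0.079). The call of Col25a1 rested on 5 UMIs of library 2, and its fold change without that library was -3.97 (adjusted p = 0.90).

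A UMI of Col16a1 was found in 82.9% of ensheathing-like cells, of Col5a3 in 72.9%, of Col20a1 in 58.6% and of Col28a1 in 47.1%. For these genes the share was at most 0.568% in the neutrophil-like, T cell-like and B cell-like classes. With cells thinned to 2000 UMIs the ensheathing-like shares were 53.1%, 39.1%, 34.4% and 21.9%. These glial transcripts were thus found in many cells of the class and not in a few.

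The 20 lower genes included the chains that dominate fibroblast-like cells. Col1a1 stood at 93.6 and 99.6 CPM in ensheathing-like cells against 4115 and 4511 (log2 fold change -5.77, SE 0.49, adjusted p = 1.03e-07), and Col1a2 at 374 and 336 against 3647 and 3677 (-3.66, SE 0.36). Col3a1, Col6a1, Col8a1 and Col26a1 were lower by 3.41, 4.14, 4.94 and 5.51 on the log2 scale. Col8a2, with 751 UMIs in fibroblast-like cells, had 0 in ensheathing-like cells and was at least 40.6-fold lower. The basement membrane chains Col4a1 (143 and 162 against 648 and 736) and Col4a2 (172 and 81.1 against 559 and 718) were lower by 2.46 and 2.67. The summed fibroblast markers of ensheathing-like cells, 83.8 and 631, differed between the libraries, while Col1a2 was 374 and 336 in the same libraries. The calls of Col24a1 (adjusted p = 0.094), Col4a6 (0.088) and Col7a1 (0.052) were lost without library 2, and that of Col6a4 without either library (0.29 and 0.34).

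Col11a1, Col12a1, Col14a1 and Col23a1 were abundant in both classes and did not pass. Col12a1 stood at 212 and 240 CPM in ensheathing-like and at 270 and 293 in fibroblast-like cells (log2 fold change -0.60, SE 0.23, adjusted p = 0.0905), and Col11a1 at 256 and 218 against 174 and 199 (0.05, SE 0.31). Col4a4 stood at 24.6 and 7.37 against 1.71 and 0.852, also without a call (adjusted p = 0.06).

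Ensheathing-like cells consisted of 2 clusters, described without a test. The cluster of 41 cells, with most of the Fabp7 and Cldn5, held 163 CPM of Col9a2, 275 of Col11a1 and 87.0 of Col11a2. The cluster of 29 cells, with little Fabp7 and 0 Cldn5, held 855 of Col20a1, 573 of Col5a3, 761 of Col18a1, 1120 of Col1a2 and 817 of Col3a1, and no Col11a2 UMI. In it Dcn stood at 9.39 CPM and Lum and Pdgfra at 0, against 356, 101 and 8.16 in the cluster of 41 cells. The other fibroblast markers are not given here. The part of other cells' RNA in these values was not tested.

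Basal epithelial-like cells, the keratin-rich cells that rest on the basement membrane and renew the epithelium, were marked by Col17a1 (chromosome 19, 47646344 to 47692094, minus strand), the transmembrane collagen of hemidesmosomes. It stood at 204 and 254 CPM there and at 0.571 and 0 in fibroblast-like cells (log2 fold change, fibroblast-like against basal epithelial-like, -9.51, SE 0.40, adjusted p = 9.61e-12). In mature neuronal-like cells it stood at 0.356 and 0.698 (log2 fold change 9.10, SE 0.30, adjusted p = 1.53e-13). A UMI was found in 81.6% of basal epithelial-like cells, and in 35.8% of them after thinning. In the neutrophil-like, T cell-like and B cell-like classes the share was at most 1.96% before thinning.

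Of 37 genes tested, 29 were higher in fibroblast-like than in basal epithelial-like cells, where 19.4% of all genes tested were called higher, and 3 were lower, where 18.1% were called lower. The median log2 fold change was 5.24 for the collagen genes and 0 for all genes, whose median shifted by 0.32 without TMM scaling. Next to Col17a1, Col25a1, a transmembrane collagen best known from neurons, was lower in fibroblast-like cells (0.571 and 0 against 23.4 and 19.8 CPM, log2 fold change -6.13, SE 0.84). Col7a1, the anchoring fibril chain that ties the epithelial basement membrane to the stroma, was found on both sides, at 40.6 and 35.8 CPM in fibroblast-like and 48.7 and 51.0 in basal epithelial-like cells (log2 fold change -0.69, SE 0.24, adjusted p = 0.0315). Its call was lost without library 1 (adjusted p = 0.23) and without library 2 (0.42). The type IV chains of the common network were far higher in fibroblast-like cells, Col4a1 at 648 and 736 against 7.45 and 7.28 and Col4a2 at 559 and 718 against 8.94 and 8.04. Col4a6 differed less, at 24 and 37.5 against 12.6 and 10.8 (log2 fold change 1.04, SE 0.38), and did not pass without library 1 (adjusted p = 0.14) or library 2 (0.53). The call of Col9a2 was lost likewise (0.097 and 0.24). Col26a1, with 227 UMIs in fibroblast-like cells and 0 in basal epithelial-like cells, was at least 225-fold higher in the former.

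Against mature neuronal-like cells, 12 of the 37 genes were higher in basal epithelial-like cells, where 29.6% of all genes tested were called higher, and 4 were lower, where 32.8% were called lower (62.4% in either direction), so that the share of higher collagen genes (32.4%) was close to that of all genes. Without TMM scaling, which shifted the median of all genes by -0.41, the counts were 11 and 7. The median log2 fold change was 0.74 for the collagen genes and -0.05 for all genes. Besides Col17a1, the higher genes were Col7a1 (48.7 and 51.0 against 0.356 and 1.16 CPM, log2 fold change 6.45, SE 0.36), Col25a1 (6.00), Col23a1 (6.16), Col4a5 (6.13), Col4a6 (5.95), Col16a1 (5.50), Col8a1 (4.14), Col18a1 (3.86), Col12a1 (3.73), Col4a1 (2.49) and Col5a2 (1.49). Of these, Col5a2 did not pass without library 2 (adjusted p = 0.57). The lower genes were Col15a1 (-3.39), Col6a1 (-3.16), Col5a3 (-4.09) and Col11a2 (-4.72). All 4 were scarce, with 53 UMIs of Col15a1 over the 704 mature neuronal-like cells. The call of Col11a2 was lost without library 1 (adjusted p = 0.49) and that of Col5a3 without either (0.26 and 0.051).

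In immature neuronal-like cells, 7 of 37 collagen genes were higher than in mature neuronal-like cells, where 18.9% of all genes tested were called higher, and 4 were lower, where 23.4% were called lower. The share of higher collagen genes was 18.9% as well, so that as a group they did not stand apart. Without TMM scaling the median of all genes shifted by 0.18 and the counts were 7 and 2. The median log2 fold change was 0.34 for the collagen genes and close to 0 for all genes. The difference was carried by Col24a1 and Col9a2. Col24a1 (chromosome 3, 145292472 to 145552011, plus strand) stood at 44.9 and 42.0 CPM in immature and at 0.889 and 0 in mature neuronal-like cells (log2 fold change 6.12, SE 0.49, adjusted p = 1.44e-07). Col9a2 (chromosome 4, 121039385 to 121055322, plus strand) stood at 38.4 and 41.5 against 2.13 and 0.233 (log2 fold change 4.71, SE 0.49, adjusted p = 5.19e-07). The libraries of both genes lay far apart between the classes. A UMI of Col24a1 was found in 23.6% of immature neuronal-like cells, 8.13% after thinning. In the neutrophil-like, T cell-like and B cell-like classes the share was at most 0.284% before thinning.

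Col8a1 stood at 17.1 and 12.1 against 2.67 and 0.233 CPM (log2 fold change 2.99, SE 0.45, adjusted p = 3.36e-05), and Col16a1 at 3.77 and 4.76 against 0 and 0.931 (3.05, SE 0.63). The remaining higher genes were scarce. Col25a1 (log2 fold change 2.40) did not pass without library 1 (adjusted p = 0.31), and Col17a1 (2.31) and Col20a1 (2.09) did not pass without library 2 (0.14 and 0.96).

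Col4a2 was the most abundant collagen of mature neuronal-like cells, at 21.3 and 14.2 CPM against 5.82 and 9.52 in immature ones (log2 fold change -1.45, SE 0.33, adjusted p = 0.00157). Without library 1 the fold change was -0.76 (adjusted p = 0.14). Its UMIs were spread over 20.6% of the mature neuronal-like cells. It was also the 1 collagen at 10 or more CPM in that class over both libraries. The lower genes Col3a1 (-1.73), Col5a2 (-2.93) and Col5a3 (-4.09) did not pass without library 1 (adjusted p = 0.85, 0.42 and 0.34), nor did Col5a3 without library 2 (0.074). In mature neuronal-like cells the fibrillar chains moved with the library: Col1a1 stood at 14.6 and 2.10 CPM, where the summed fibroblast markers stood at 82.8 and 25.1. The 30 UMIs of Col9a3 came from 0.568% of the cells, all in library 1. The part of other cells' RNA in these values was not tested.

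Within the neuronal-like cells the collagens differed between clusters, which is given as a description. Col24a1 stood at 80.8 CPM in the immature cluster with high Neurod1 (175 cells), at 42.0 in the Gnai2-high one (233 cells) and at 8.74 in the Gnao1-high one (172 cells). For Col9a2 the values were 76.4, 26.9 and 20. Col8a1 had another order, with 3.16, 26.9 and 11.2. Col4a2 stood at 14.5 in the Neurod1-high, 1.96 in the Gnai2-high and 7.49 in the Gnao1-high immature cluster, and at 18.3 in the mature cluster of neurons with V1r receptors (595 cells) and at 17.9 in that with V2r receptors (109 cells). In library 2 its value in the Neurod1-high cluster (17.4) was above those of both mature clusters (14.4 and 13.5), and in library 1 (12) below them (21.2 and 22).

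**Figure D4:**
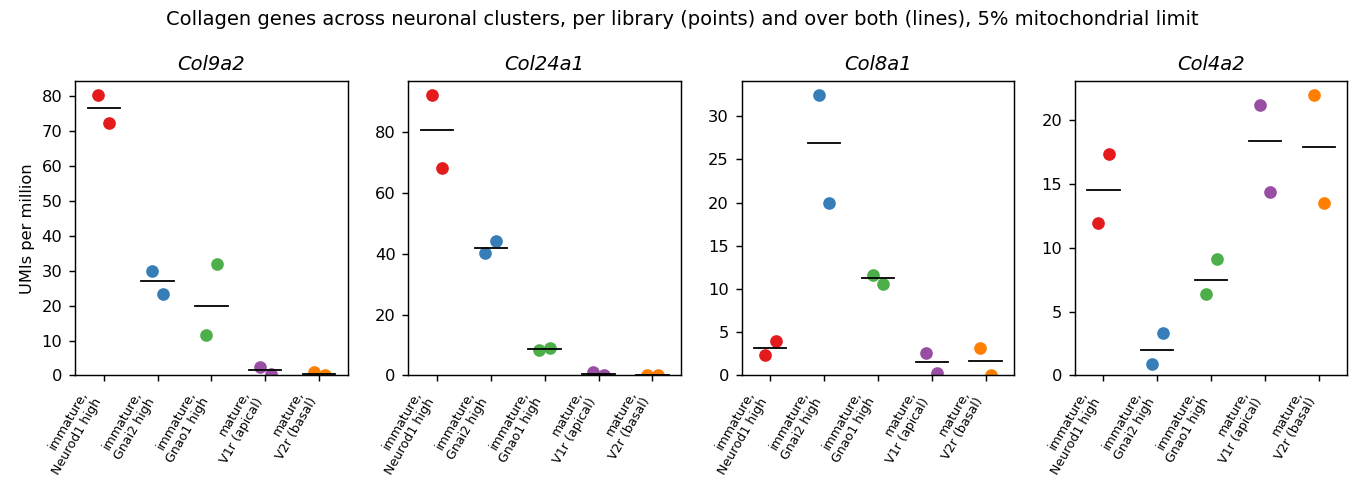
Points give CPM of Col9a2, Col24a1, Col8a1 and Col4a2 in each library for 3 immature and 2 mature neuronal clusters at the 5% mitochondrial limit, and lines give the value over both libraries; each panel has its own linear axis from 0. Col24a1 and Col9a2 were highest in the Neurod1-high cluster (80.8 and 76.4), Col8a1 in the Gnai2-high cluster (26.9) and Col4a2, over both libraries, in the mature clusters (18.3 and 17.9, with 14.5 in the Neurod1-high cluster), but not in library 2.

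Chains that share a triple helix were then compared within classes, as the ratio of their UMIs. In fibroblast-like cells Col1a1 and Col1a2 were in a ratio of 1.17 (1.13 and 1.23 in the libraries), and all 359 cells with a UMI of Col1a1 also held Col1a2. In ensheathing-like cells the ratio was 0.275 (0.25 and 0.297) and in mural-like cells, at the 10% limit, 0.335 (0.116 and 0.513), so that Col1a2 exceeded Col1a1 in every library of both classes. Endothelial-like cells stood at 1.27 (1.00 and 1.33).

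Col4a1 and Col4a2, whose genes lie head to head with starts that overlap by 22 bases on chromosome 8, were in a ratio of 1.10 in fibroblast-like, 1.34 in endothelial-like, 1.28 in ensheathing-like and 0.865 in basal epithelial-like cells. Mural-like cells stood at 1.88 at the 10% limit. Immature neuronal-like cells stood at 0.513 and mature neuronal-like cells at 0.0939, with 17 UMIs of Col4a1 and 181 of Col4a2. The mature neuronal-like cells thus held Col4a2 with little of its partner. The sources at hand do not say if the counting used strand, and reads where these genes overlap could not be told apart without it. That overlap is limited to 22 bases at the starts of both genes, whereas UMIs were counted at the 3′ end. Its part in the ratio was not tested. Both chains were found together in 271 of the 302 fibroblast-like cells with Col4a1 (89.7%), in 211 of 332 endothelial-like cells (63.6%) and in 5 of 12 mature neuronal-like cells.

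**Figure D5:**
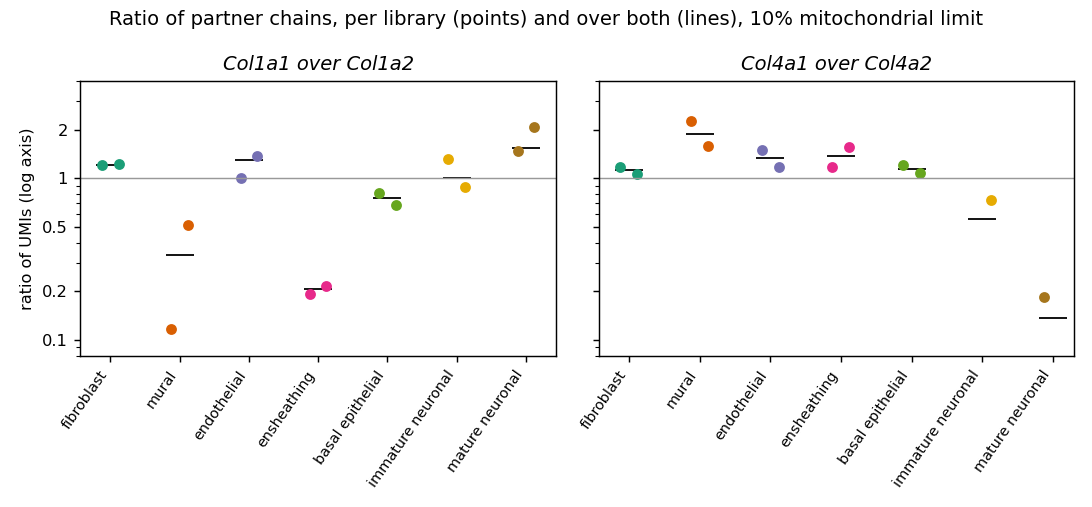
Points give the UMI ratio of Col1a1 to Col1a2 (left) and of Col4a1 to Col4a2 (right), on a log axis, in each library with at least 10 UMIs of both chains at the 10% mitochondrial limit, and short lines give the ratio over both libraries; the gray line marks equal UMIs. Col1a1 to Col1a2 was below 1 in both libraries of mural-like cells (0.116 and 0.513) and of ensheathing-like cells (0.192 and 0.214), and Col4a1 to Col4a2 was 0.137 in mature neuronal-like cells.

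Other partners were less even. Col6a1 exceeded Col6a2 by a ratio of 2.24 in fibroblast-like cells, and Col6a3 was at 0.438 of Col6a1. Col5a1 was at 0.746 of Col5a2 in fibroblast-like and at 0.322 in endothelial-like cells. Col4a5 exceeded Col4a6 by a ratio of 4.02 in fibroblast-like cells and 1.12 in basal epithelial-like cells, and Col8a1 exceeded Col8a2 by 1.62 in the former. Col9a3 was at 1.13 of Col9a2 in ensheathing-like cells (1.00 and 1.32 in the libraries), but at 0.744 (0.714 and 0.777) at the 10% limit with its 234 ensheathing-like cells, so that the order of the chains depended on the limit, whereas immature neuronal-like cells held little Col9a3 (0.192). Col11a1 was found without Col11a2 in all 160 fibroblast-like cells that held it, while 18 of 37 such ensheathing-like cells held both. Capture at the 3′ end may differ between genes, so that a ratio can be compared between classes but does not give the number of chains.

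The 44 genes lay on 15 chromosomes, with 8 neighbouring pairs within 200 kb. Partners lying head to head were Col4a1 and Col4a2, Col4a4 and Col4a3 (71 bases apart on chromosome 1) and Col4a6 and Col4a5 (1308 bases apart on chromosome X). The interval between Col4a4 and Col4a3 (chr1:82586850-82586920, on the strand of Col4a4, GRCm38.p6) is shown because both chains were scarce in the classes described, with 22 UMIs of Col4a4 and 8 of Col4a3. None of the 4 motifs is in it.
Col4a4 to Col4a3: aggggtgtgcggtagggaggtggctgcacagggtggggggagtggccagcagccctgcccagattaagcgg

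Neighbours also occurred that were highest in the same class without lying head to head. Col3a1 and Col5a2 lie tail to tail 24614 bases apart on chromosome 1 and were both highest in fibroblast-like cells, as were Col6a2 and Col6a1, which lie in the same direction on chromosome 10. Col9a1 and Col19a1 lie tail to tail 9205 bases apart. At the 10% limit Col19a1 had 40 UMIs over the classes described and was highest in mural-like cells. Col9a1 had 15 UMIs over the same classes, and its highest class differed between the libraries.

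Lists of genes that make, bind or remove collagen were examined alongside. They were not left out of the clustering, so that their values are a description. Their counts can be read against the shares of all genes called in each comparison, which are given with each count for higher and lower genes in turn. Of 34 genes of collagen synthesis (prolyl and lysyl hydroxylases, chaperones, procollagen proteinases and lysyl oxidases), 27 were higher and 0 lower in fibroblast-like than in basal epithelial-like cells (all genes 19.4% and 18.1%), and 23 were higher and 1 lower than in mural-like cells (15.5% and 10.7%). In ensheathing-like cells 2 were higher and 21 lower than in fibroblast-like cells (6.7% and 9.75%). Colgalt2, which adds galactose to collagen hydroxylysine, was higher there (29.6 and 18.4 against 0.571 and 0 CPM, log2 fold change 5.62, SE 1.07). In endothelial-like against mural-like cells 10 were higher and 12 lower (17.8% and 16.2%), and in basal epithelial-like against mature neuronal-like cells 16 were higher and 1 lower (29.6% and 32.8%). In immature against mature neuronal-like cells 2 were higher and 9 lower (18.9% and 23.4%), and the share of lower genes was near that of all genes. Mia3, which helps to load collagen into secretory vesicles, was the 1 synthesis gene lower in basal epithelial-like than in mature neuronal-like cells, and 1 of the 9 lower in immature neuronal-like cells. In mature neuronal-like cells it stood at 631 CPM in both libraries, against 37.7 and 36.4 in basal epithelial-like cells (log2 fold change -3.67, SE 0.15) and 104 and 99.5 in immature neuronal-like cells (-2.82, SE 0.14).

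Of 7 fibril partners, such as the proteoglycans that coat fibrils, 6 were higher and 0 lower in fibroblast-like than in basal epithelial-like cells (19.4% and 18.1%), and 0 were higher and 5 lower in ensheathing-like than in fibroblast-like cells (6.7% and 9.75%). Dcn and Lum of that list were among the markers that named the fibroblast-like class. Of 14 basement membrane partners, 10 were higher and 0 lower in basal epithelial-like than in mature neuronal-like cells (29.6% and 32.8%). In fibroblast-like against basal epithelial-like cells 9 were higher and 5 lower (19.4% and 18.1%). Lamb3, a chain of the laminin that holds hemidesmosomes, stood at 158 and 165 CPM in basal epithelial-like cells and at 1.14 and 0 in fibroblast-like cells (log2 fold change -8.10, SE 0.37), as Col17a1 did in direction. Lama1 stood at 50.9 and 67.3 in fibroblast-like cells and at 0 in ensheathing-like cells. In endothelial-like against mural-like cells 7 partners were higher and 3 lower (17.8% and 16.2%).

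Of 10 collagen receptors tested, 1 was higher and 6 were lower in endothelial-like than in mural-like cells (17.8% and 16.2% of all genes). The higher one was Itga2, the integrin chain for collagen on epithelia and platelets, at 16 and 19 CPM against 0 in both mural-like libraries. Itga2 was also higher in ensheathing-like than in fibroblast-like cells (59.1 and 29.5 against 0.571 and 0.852, log2 fold change 5.58, SE 0.73). Itga1 was lower in immature than in mature neuronal-like cells (0.685 and 0.865 against 37.3 and 40.3 CPM, log2 fold change -5.74, SE 0.33). Of 9 turnover genes tested (proteases and their inhibitors), 8 were higher and 0 lower in fibroblast-like than in basal epithelial-like cells (19.4% and 18.1%). Ctsk, a protease that cuts fibrillar collagen, stood at 1078 and 1066 CPM against 0.638 and 0 (log2 fold change 11.12, SE 0.32).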

How the data were processed

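Single cells of the whole VNO were captured with 10x Genomics 3′ chemistry, and the authors counted molecules per gene with Cell Ranger 4 on mm10 and merged both libraries. The deposited file holds raw UMI counts per gene and barcode, and the number after the dash of each barcode gave its library. The sources at hand do not state the depth setting of that merge or the strand setting.

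Following the study, a gene had to occur in 3 cells or more and a cell to have 200 to 9000 genes with no more than 5% of its UMIs mitochondrial, which left 10592 of 24084 barcodes (18705 at 10%). Clustering used Seurat 5.3.0 with R 4.3.3 (2000 variable genes without the collagens, 30 principal components, resolution 0.8), and stromal cells again with 15 components. Clusters were named from markers, and 3497 cells at the 5% limit (6562 at 10%) lay in clusters left without a class. Among them were a cluster of 244 cells with Krt13 and a stromal cluster of 119 cells with markers of mural, fibroblast and osteoblast cells. Another, of 306 cells, was led by Vmn1r and Vmn2r genes, so that the mature neuronal-like class does not hold all cells with such transcripts. The mural class could be named only at the 10% limit, so both of its comparisons were made there; this was chosen after the data were seen. Scrublet (scanpy 1.11.5) called 172 cells (1.62%) as doublets, which were kept.

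UMIs summed per class and library were fitted over all classes described with edgeR 4.0.16 (TMM, quasi-likelihood, genes with at least 10 UMIs in all), with 16324 genes tested at the 5% limit and 17191 at 10%. Levels are UMIs per 1000000 UMIs of the class (CPM), not divided by gene length. SE was taken from the fold change and its F value. For shares, cells were thinned to 2000 UMIs, which left out 5 fibroblast-like, 35 endothelial-like, 6 ensheathing-like, 9 basal epithelial-like and 2 immature neuronal-like cells; intervals are exact binomial and cover counting error only. A floor of 3 counts was used for genes at 0. The procedure was tested on simulated data with 200 changed genes and the same spread set for every gene and class. For fibroblast-like against mural-like cells it found 12% of genes changed by 1 on the log2 scale and 76% of those changed by 2, and for ensheathing-like against fibroblast-like cells 6% and 32%. Of the calls, 3.7% in the former and 6.25% in the latter were of unchanged genes.

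All 44 collagen genes were named, but not with a value for every comparison. Of the other lists, values are given for only some of the 2 genes with the largest fold change in each direction. The members and lists were chosen with earlier results of these data known. Libraries pair the classes because both classes of a pair come from the same capture; deviations of the same library correlated by 0.010 to 0.094. The libraries differed beyond sampling noise (chi-square per degree of freedom 1.96 to 6.47). Alternatives were DESeq2 1.42.0, no TMM, other filters, resolutions and limits, and leaving out a library.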

Additional observations from a re-analysis of the deposited data

How the results depend on the processing

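Of 133 collagen fold changes past the threshold, 97 stayed past it in the same direction under every alternative in which the gene was tested. With the library as a replicate block the collagen genes called numbered 29, 20, 30, 20, 33 and 14 in the 6 comparisons (fibroblast-like against mural-like, endothelial-like against mural-like, ensheathing-like against fibroblast-like, basal epithelial-like against mature neuronal-like, fibroblast-like against basal epithelial-like, immature against mature neuronal-like), against 27, 18, 29, 16, 32 and 11 without it.

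Leaving out 1 library left 1 sample in each of the 2 classes compared. Their spread was taken from the other classes, which kept both libraries. Endothelial-like against mural-like cells then gave 11 to 14 called collagen genes and immature against mature neuronal-like cells 8 to 13. Synthesis genes called in ensheathing-like against fibroblast-like cells numbered 12 to 15, and 13 with cells thinned. In immature against mature neuronal-like cells synthesis genes numbered 7 to 8, and 7 thinned, and genes of receptors, turnover and partners 8 to 15, and 6 thinned. Called collagen genes in that comparison numbered 7 with only those 2 classes fitted and 4 thinned. The number of genes highest in mature neuronal-like cells was 0 to 1 without a library and 1 without doublets, and in immature neuronal-like cells 1 without either library (1 to 1), thinned or without doublets. The median share of cells with a UMI, over placed genes in their highest class, was 58.6% and fell to 29.7% when thinned. The ratio of Col1a1 to Col1a2 in endothelial-like cells was 1.0 to 1.33 without a library. Col25a1 in ensheathing-like against fibroblast-like cells was 8.48 without library 1 and -3.97 without library 2, and Col20a1 in immature against mature neuronal-like cells to -0.59 when thinned, which leaves fewer UMIs. The cause of the other changes was not tested.

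Ensheathing-like cells numbered 70 and mural-like cells 181, so that their scarce genes rest on few UMIs.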

Other observations

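Several collagens were also found outside the classes described. In sustentacular-like cells, the supporting cells of the epithelium, Col6a3 was found in 76.3% of 279 cells with 551 UMIs (157 CPM, below the fibroblast-like cells), while Col6a1, its partner in type VI collagen, was found in 1.08%. Col4a3 and Col4a4 were found in 14.7% and 12.2% of these cells, and Col6a6 in 6.09%. Col4a3, Col4a4 and Col6a6 had at most 7 UMIs in any other named class at the 5% limit.

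The 46 chondrocyte-like cells held the collagens of cartilage, Col2a1 at 354, Col9a1 at 398, Col9a3 at 429 and Col11a1 at 585 CPM, and also Col8a1 at 629. At the 10% limit 53 osteoblast-like cells held 6342 CPM of Col1a1, above the fibroblast-like cells, and 152 of Col13a1 and 230 of Col14a1. The 35 lymphatic endothelial-like cells held 211 CPM of Col23a1 at the 5% limit, above every class described, and 193 at 10%. These values were not tested.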
